A study of Mus musculus with 12 samples.

Results

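Resting neurons were represented by 6 crosslinking and immunoprecipitation (CLIP) libraries of eIF4G2 out of 12 libraries in the series, and the 5′ UTRs described here are those of every named gene in their count tables. Of 3366 listed 5′ UTRs, 2090 (62.1%) had at least 1 tag at rest. A tag is a sequenced fragment of RNA recovered with the protein, and the deposited values are raw tag counts per 5′ UTR. The cells were primary cortical neurons from CD-1 mouse embryos, cultured for 12 days and not depolarized, exposed to cycloheximide for 2 min and crosslinked with ultraviolet light, with 3 dishes for each replicate. The drugs that precede depolarization are given in the labels for depolarized cells, and no stimulus is given for the resting ones. Resting libraries had been pooled with depolarized ones after barcoding, and depolarized libraries enter none of the values below except where named. No library of input RNA was used here, so the tags on a 5′ UTR cannot be told apart from the abundance of its mRNA, nor fewer cells of a type from less RNA per cell.

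eIF4G2, also called DAP5, is a relative of the scaffold eIF4G that lacks the region that binds the cap-binding protein eIF4E. It contacts the helicase eIF4A and the factor eIF3 and takes part in initiation that does not follow the usual cap-dependent route, including on leaders that are structured or hold upstream open reading frames. The 5′ UTR is the stretch that the initiating ribosome scans before the main start codon, so its length, base composition and upstream ATGs bear on how a transcript is read.

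The hexamer CGCGGC is a predicted eIF4G2 motif of the study. The paper also reports it as the motif most often crosslinked in this CLIP experiment, so hexamer counts on these libraries are not independent of that result. It was searched on the transcript strand, in the 5′ UTR of each gene's longest coding transcript that has one (GENCODE M21, GRCm38). It was present in 36.8% of the listed 5′ UTRs that could be matched and in 13.1% of the 17547 coding genes that were not listed. The listed 5′ UTRs were also longer (median 306 against 157 bases) and richer in GC (median 66.0% against 58.4%). Per kilobase the hexamer numbers were 1.55 and 0.774. The part of length and GC content in this contrast was not tested. Below are 30-base windows from 8 5′ UTRs with a tag in 5 or 6 resting libraries, chosen because their genes run from ion pumps to transcription factors, with the hexamer in capitals.
Atp1b1: cctaggctgctcCGCGGCgcgcctcgcact
Atp2a2: gcctgcgctgccCGCGGCcggctggcagct
Itsn1: ggggatggtgtgCGCGGCtgcggactcggc
Trim8: agccagcctcggCGCGGCcgaactagcttc
Nr2f1: gacctcctcctcCGCGGCcgccgccgccct
Gpr85: gaggcggccgtcCGCGGCacggtggcttcg
Fyn: gctgcgagaagcCGCGGCggtggcggcggc
Rtn4: cccacaaccgccCGCGGCtctgaggagaag

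The windows lie in GRCm38 at chr1:164458003-164458032 on the minus strand (Atp1b1), chr5:122501979-122502008 on the minus strand (Atp2a2), chr16:91729498-91729527 on the plus strand (Itsn1) and chr19:46501905-46501934 on the plus strand (Trim8). The others lie at chr13:78199276-78199305 on the minus strand (Nr2f1), chr6:13839006-13839035 on the minus strand (Gpr85), chr10:39369799-39369828 on the plus strand (Fyn) and chr11:29693120-29693149 on the plus strand (Rtn4). The 5′ UTRs of Trim8, Atp2a2 and Gpr85 held 5, 3 and 3 copies of the hexamer, those of Itsn1, Nr2f1 and Rtn4 held 2, and those of Atp1b1 and Fyn held 1. The tables count tags per 5′ UTR without positions, so a window marks the letters and not the place of a tag.

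Replicates 1 to 6 held 3224, 371, 306, 729, 928 and 913 tags on 5′ UTRs, 6471 in all, and replicate 1 alone gave 49.8% of them. With 0 tags, a 5′ UTR could still reach 931 CPM (tags per 1000000 5′ UTR tags of the library) in replicate 1 and 9804 in replicate 3 (3 counts of the library total, counting error only). The 10 most tagged 5′ UTRs took 8.44% of the tags in replicate 1, 16.2% in replicate 2 and 18.6% in replicate 3. They took 39.8%, 36.1% and 37.1% in replicates 4 to 6, which therefore stood apart from the first 3. Genes in which a small nucleolar RNA is annotated (57 of those listed) held 32.5%, 29.5% and 29.1% of the tags in replicates 4 to 6, against 6.36%, 7.28% and 10.8% in replicates 1 to 3. With these genes removed, the 10 most tagged 5′ UTRs took 5.63% of the remaining tags in replicate 1 and between 14.8% and 18.9% in the other 5.

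**Figure D1:**
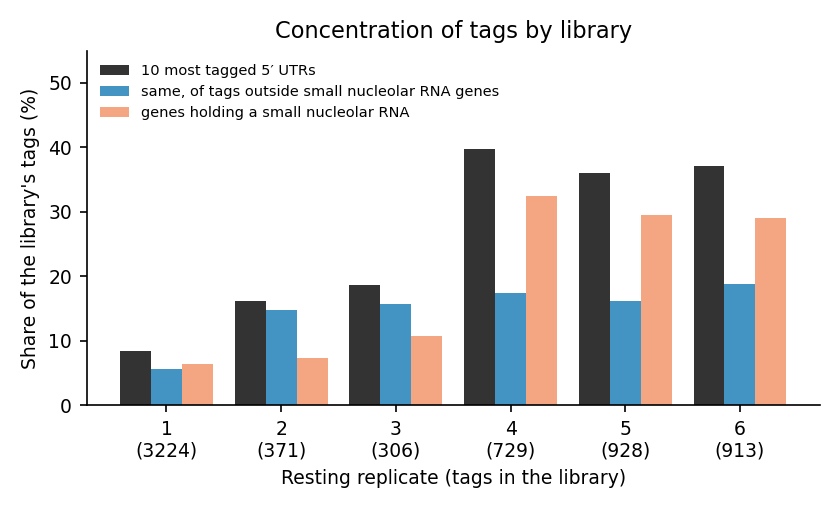
Share of each resting library's 5′ UTR tags, in percent, on its 10 most tagged 5′ UTRs (dark bars), on genes that hold a small nucleolar RNA (orange) and on the 10 most tagged other 5′ UTRs as a share of the tags outside those genes (blue); the tags in each library are in brackets. Replicates 4 to 6 reach 36.1% to 39.8% in the dark bars and 16.2% to 18.9% in the blue ones.

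Before libraries were counted as replicates they were compared in pairs. In a chi-square test with 5′ UTRs under 10 tags summed, 11 of 15 pairs differed at an adjusted p under 0.05, and the largest adjusted p was 0.553 (replicates 4 and 6). The 3 pairs among replicates 4 to 6 and the pair of replicates 2 and 3 did not differ in that test. Over all 5′ UTRs, against the exact mean and variance of the statistic, all 15 pairs differed, with a largest adjusted p of 0.000508 (replicates 5 and 6). This test covers counting error and treats tags as independent molecules, so it does not show that the libraries come from separate cultures. The 6 libraries were kept apart as labelled, and the main counts are also given with replicates 4 to 6 as 1 library. Over the 81 5′ UTRs with at least 10 resting tags, the Spearman correlation across 5′ UTRs lay between 0.458 and 0.663 among replicates 4 to 6 and between -0.309 and -0.256 for replicate 1 with each of them, and these points share library totals and a few highly tagged genes. The 81 were chosen by summed tags, so a 5′ UTR could enter through replicate 1 or through replicates 4 to 6 alone, which lowers the correlation between them.

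The label of the cells was checked against cell type markers. Of 11 neuron markers, 5 were listed and all 5 had a tag. Syt1, the calcium sensor of synaptic vesicle release, held 40 tags and Elavl3, a neuronal RNA-binding protein, held 10, whereas Map2, Rbfox3 and Stmn2 held 2 each. Bcl11b, a factor of deep-layer projection neurons, held 9 of the 13 tags on glutamatergic markers, and the 5 listed GABAergic markers (Gad1, Gad2, Slc32a1, Dlx2 and Sst) held 9 tags together. No oligodendrocyte, endothelial or mural marker was listed. Among other non-neuronal markers, the glial glutamate transporter Slc1a2 held 5 tags, the microglial Aif1 held 1, the progenitor factor Sox2 held 1 and the astrocytic Sox9 held 0. A marker that is not listed has no value here and says nothing of the cells.

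Tags were spread thinly over many 5′ UTRs. A tag in 1 library was the most frequent case with 1482 5′ UTRs, followed by 382 in 2 libraries, 124 in 3, 62 in 4, 30 in 5 and 10 in all 6. Another 1276 listed 5′ UTRs had no resting tag, of which 1190 had a tag in a depolarized library. A 5′ UTR is called recurrent below when at least 3 of the 6 libraries hold a tag on it. By this rule 226 were recurrent, or 6.71% of those listed, and they held 2992 tags, 46.2% of the resting total. Replicate 1 held a tag on 210 of the 226, and 7 of the 226 had their tags in replicates 4 to 6 only. Without replicate 1 the number of recurrent 5′ UTRs was 114, and with replicates 4 to 6 as 1 library, and at least 3 of 4 required, it was 138. Of the 226, 8 overlap an exon of another gene on the same strand and 21 on the opposite strand in the annotation used here, so their tags are uncertain in origin.

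**Figure D2:**
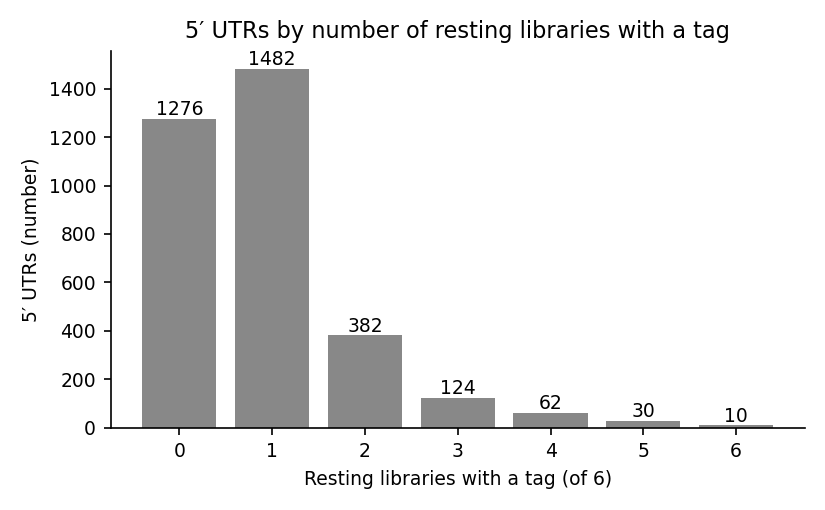
Number of the 3366 listed 5′ UTRs (vertical axis) by the number of resting libraries, of 6, that held at least 1 tag on them (horizontal axis). The bars step down from 1482 in 1 library to 10 in all 6 libraries.

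Recurrence was also read from the deepest library into the other 5. Of 137 5′ UTRs with at least 5 tags in replicate 1, 108 had a tag in at least 1 other library (78.8%, Wilson 95% interval 71.3% to 84.8%), 72 in at least 2 and 40 in at least 3. Among the 1300 with 1 to 4 tags in replicate 1 the share with a tag elsewhere was 31.1%, and among the 1929 with none it was 33.9%. All listed 5′ UTRs except 86 had a tag in at least 1 library of either condition, so most of those without a tag in replicate 1 were tagged elsewhere. For at least 2 other libraries the shares were 52.6%, 10.6% and 4.98%, so the many 5′ UTRs with few tags in replicate 1 recurred at a rate between the extremes. Of the 81 5′ UTRs with at least 10 resting tags, 69 were recurrent and 9 were tagged in 2 libraries. The remaining 3 were Cpe, an enzyme of neuropeptide processing, Deaf1, a transcription factor, and St3gal2, a sialyltransferase; these 3 genes were picked out after their values were seen, and replicate 1 held all their tags.

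A tag was found in all 6 libraries on 10 5′ UTRs (0.297% of those listed). They fell into 4 genes that hold an annotated small nucleolar RNA and 6 that do not. Of the former, Tcp1, a subunit of the CCT chaperonin that folds actin and tubulin, held 56, 2, 6, 80, 112 and 85 tags in replicates 1 to 6. The uncharacterised gene 2410002F23Rik held 70, 7, 10, 58, 54 and 68. Rabggtb, the catalytic subunit that attaches lipid anchors to Rab proteins, held 9, 8, 6, 46, 46 and 40 tags. Ddx39b, a helicase of mRNA splicing and export, held 2, 3, 4, 12, 14 and 14 tags. In CPM, the values of all 4 in replicates 4 to 6 exceeded every value of replicates 1 to 3.

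In 3 of these 4, an annotated small nucleolar RNA overlaps the 5′ UTR used here. It is Snord45c in Rabggtb (chr3:153912060-153912145, minus strand), Gm22589 in Ddx39b (chr17:35241870-35243239, plus strand) and Gm23991 with Gm26247 in 2410002F23Rik (chr7:44247442-44250672, plus strand). In Tcp1 (chr17:12916382-12916565, plus strand), Snora20 and Gm26130 lie elsewhere in the gene. The part of these RNAs in the counts was not tested. Per kilobase of annotated 5′ UTR, the summed tags were 1853 for Tcp1 and 1802 for Rabggtb, far above the 104 of 2410002F23Rik and the 35.8 of Ddx39b.

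The 6 others differ in function, though Atp1b1 and Atp2a2 both belong to ion pumps, and none of the 6 holds an annotated small nucleolar RNA. Syt1, the vesicle calcium sensor, held 4, 8, 12, 2, 4 and 10 tags in replicates 1 to 6. Atp1b1, the beta subunit of the sodium-potassium pump, held 12, 1, 2, 6, 6 and 5. Atp2a2, the SERCA pump that loads calcium into the endoplasmic reticulum, held 9, 3, 4, 2, 5 and 7. Neither pump shows the excess in replicates 4 to 6 seen for Tcp1, whereas Syt1 had its highest CPM in replicates 2 and 3. Epha5, an ephrin receptor of axon guidance, held 8, 4, 1, 6, 6 and 4 tags. Gpm6a, a membrane glycoprotein of neurite outgrowth, held 6, 1, 3, 2, 3 and 7, and Gnb1, a G protein beta subunit, held 1, 3, 1, 2, 2 and 1. Gnb1 thus met the strictest rule with 10 tags in all.

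Scaled to the library total, Atp1b1 had 5521 ± 2024 CPM (SD, n = 6), Epha5 had 5935 ± 3178, Atp2a2 had 6625 ± 3901, Gpm6a had 4667 ± 3253 and Syt1 had 13338 ± 14718. Gnb1 had 2943 ± 2741, or 1914 without replicate 2. The mean of Syt1 lay above the mean plus SD of the other 5, but its own SD exceeded its mean, and without replicate 3 it was 8162 CPM. The means of Atp2a2, Epha5, Atp1b1 and Gpm6a differed from each other by less than the smallest of their SDs. Per kilobase of 5′ UTR, Epha5 had 69.7 summed tags, Atp1b1 64.3, Syt1 60.2, Atp2a2 55.6, Gpm6a 50.5 and Gnb1 32.4. These sums give replicate 1 the most weight, whereas the mean CPM weights the 6 libraries equally. The annotated leaders lie at chr10:108691047-109010975 (Syt1, minus strand, with introns between its parts), chr1:164457858-164458355 (Atp1b1, minus), chr5:122501686-122502225 (Atp2a2, minus), chr5:84416506-84416921 (Epha5, minus), chr8:54954843-54955278 (Gpm6a, plus) and chr4:155491361-155527452 (Gnb1, plus, with introns).

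**Figure D3:**
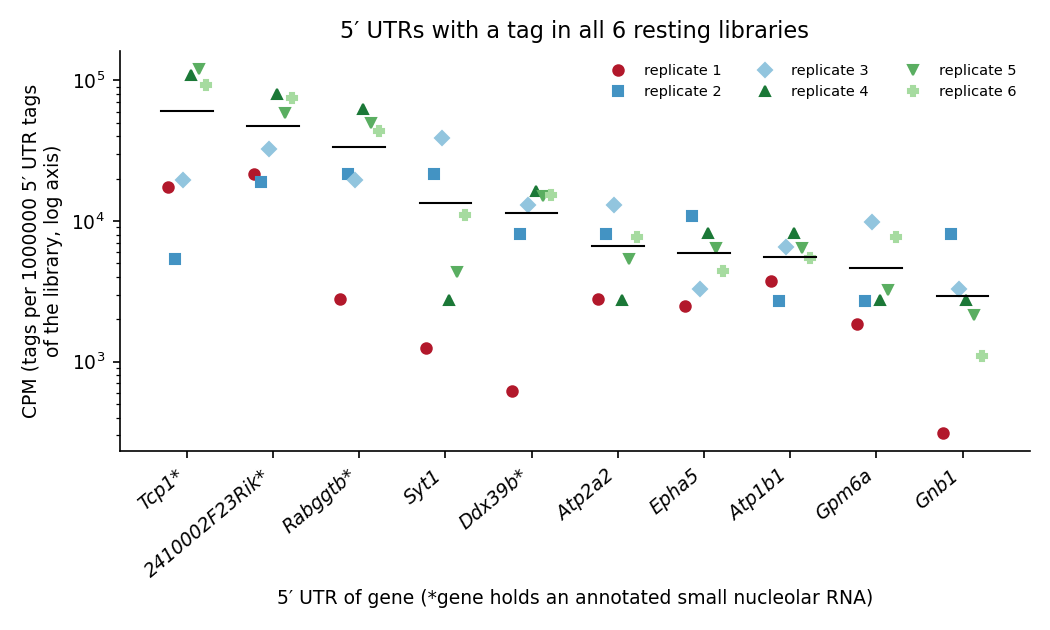
CPM, as tags per 1000000 5′ UTR tags of the library (log axis), for the 10 5′ UTRs with a tag in all 6 resting libraries, 1 point for each library and a line at the mean. The 4 starred genes, Tcp1, 2410002F23Rik, Rabggtb and Ddx39b, are highest in replicates 4 to 6, and replicate 1 is lowest for 6 of the 10 genes.

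The highest mean CPM outside these 10 belonged to Zbtb10, a zinc finger and BTB protein, with 1, 0, 0, 24, 38 and 38 tags in replicates 1 to 6. Cnot1, the scaffold of the CCR4-NOT deadenylase, held 5, 0, 0, 22, 17 and 27 tags and also hosts small nucleolar RNAs, while an antisense gene overlaps its leader. Rack1, a ribosome-bound scaffold, held 5, 2, 0, 16, 21 and 18, and Itsn1, an endocytic scaffold of the synapse, held 4, 1, 0, 16, 12 and 27. Cited2, a transcriptional coregulator, held 9, 0, 0, 9, 14 and 12. These 5 share the same pattern of many tags in replicates 4 to 6 and few or none in replicates 2 and 3. Of the 81 5′ UTRs with at least 10 tags, 8 had at least 80% of their tags in replicates 4 to 6, which hold 39.7% of all resting tags, and 5 of the 8 are genes with a small nucleolar RNA. The 3 without one are Zbtb10, Itsn1 and Ptprn, a dense-core vesicle protein. In the opposite direction, 14 of the 81 had at least 80% of their tags in replicate 1, of which 1 (St3gal2) holds a small nucleolar RNA.

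Genes were then grouped into 19 classes by name, which took in 1505 of the 3366 genes. Because the classes were drawn up with earlier results of these data known, they are described by their counts beside the 6.71% of all listed 5′ UTRs, and no test is given. The median over all listed 5′ UTRs was 1 tag and 1 library, and the median of most classes was the same, so classes differ in their upper end. In 13 classes the recurrent share was above 6.71%, and 5 of these stayed above the matching share of all 5′ UTRs under all 11 alternative settings: adhesion and guidance, cytoskeleton, ion channels, synaptic vesicle, and solute carriers. Solute carriers did so by a narrow margin, with 7.77% over 6 libraries and 5.83% against 5.73% without replicate 3. With replicates 4 to 6 as 1 library, where 4.10% of all 5′ UTRs were recurrent, the shares were 13.7% for adhesion and guidance (13 genes), 11.4% for synaptic vesicle (5), 9.26% for receptors and scaffolds (5), 8.82% for cytoskeleton (6), 8.06% for ion channels (5), 6.67% for small GTPases (8) and 0% for zinc finger and chromatin genes.

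Cell adhesion and axon guidance had the highest recurrent share of the classes over 10 genes. Of its 95 listed genes 70 had a tag (73.7%, against 62.1% of all listed) and 19 (20.0%) were recurrent, and without replicate 1 the share was 14.7% against 3.39% of all 5′ UTRs. Beside Epha5 they include Pcdh9, a protocadherin, with 24, 0, 2, 1, 2 and 2 tags in replicates 1 to 6, and Cadm2, a synaptic adhesion molecule, with 1, 0, 2, 4, 1 and 6. Replicate 1 held most of the Pcdh9 tags and 1 of the Cadm2 tags. The others reach across several families, among them the protocadherins Pcdh10, Pcdh17, Pcdh7, Pcdh11x and Pcdh19, N-cadherin (Cdh2), the presynaptic Nrxn2, the latrophilins Adgrl1 and Adgrl3, and the guidance receptors Plxna2 and Nrp2. The class took 5.77 ± 1.19% of a library's tags (SD, n = 6) and makes up 2.82% of the list.

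The synaptic classes were above the background in recurrence, though not all in the share with a tag. In the vesicle and exocytosis class 33 of 44 genes had a tag (75%, against 62.1% of all listed) and 6 (13.6%) were recurrent, among them Syt1, Itsn1, Sv2a, Sncb and Snap91. Sv2a, a vesicle glycoprotein, held 3, 2, 0, 1, 1 and 1 tags. Among receptors and postsynaptic scaffolds 35 of 54 had a tag (64.8%, close to the 62.1%) and 8 (14.8%) were recurrent. Grin2b, an NMDA receptor subunit, was tagged in the most libraries, 4, with 1, 1, 0, 1, 0 and 1 tags, and its leader overlaps an antisense gene. Lrfn5, a synaptic adhesion protein, held 6, 0, 0, 0, 1 and 1 tags, and Nlgn2, the neuroligin of inhibitory synapses, held 5, 2, 0, 0, 1 and 0. The other 5 (Grm5, Grm7, Cnr1, Homer1 and Nlgn1) had 3 or 4 tags. Most recurrence in this class therefore rests on 1 tag at a time: with at least 2 tags required in a library, 0 of the 54 were recurrent, against 1.66% of all 5′ UTRs, and without replicate 1 the share was 3.70%, close to the 3.39% of all 5′ UTRs in that setting.

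Ion channels and calcium handling had 42 of 62 genes with a tag (67.7%, against 62.1% of all listed) and 8 (12.9%) recurrent. The recurrent share was 4.84% without replicate 1 and 6.45% without replicate 5, where all 5′ UTRs had 3.39% and 4.72%. Kcnj3, a G protein-gated potassium channel, held 11, 1, 0, 1, 5 and 4 tags, and Stim2, the endoplasmic reticulum calcium sensor, held 3, 0, 0, 1, 5 and 5. Kcna1, a voltage-gated potassium channel, with 13 tags and the plasma membrane calcium pump Atp2b1 with 3 were recurrent in 3 libraries each. Calcium is handled by Atp2a2, Atp2b1 and Stim2 alike, as pump or sensor. An antisense gene overlaps the leader of Kcnj3.

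The cytoskeleton and motor class had 41 of 68 genes tagged (60.3%, like the 62.1% of all listed) and 11 (16.2%) recurrent. Kif5c, a kinesin heavy chain of axonal and dendritic transport, held 10, 0, 0, 2, 1 and 2 tags. Kif3c, another kinesin, held 9, 2, 0, 0, 1 and 2, and Stmn4, a stathmin that binds tubulin, held 2, 1, 1, 0, 3 and 0. Replicate 1 gave most of the kinesin tags but few of those of Stmn4. The other 8 were Actr3, Map6, Map1b, Dynll2, Kif5a, Tubb2b, Ank3 and Myo5a, which span actin nucleation, microtubule binding, dynein and myosin motors and the axon initial segment. Without replicate 1 the recurrent share was 5.88%, against 3.39% of all 5′ UTRs.

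By the rule of 3 of 6 libraries, signalling classes were nearer to the background than the adhesion, cytoskeleton, ion channel and synaptic classes. Without replicate 1, however, G protein genes (6.35%) lay above cytoskeleton (5.88%) and ion channels (4.84%). Of the 63 G protein genes 46 had a tag (73.0%, against 62.1% of all listed). Small GTPases and their regulators had 13 of 120 recurrent (10.8%), with Srgap3, a Rac regulator of spine formation, at 2, 1, 2, 0, 1 and 2 tags. The share of this class was 4.17% without replicate 4, below the 4.84% of all 5′ UTRs in that setting. G protein and cyclic nucleotide genes had 6 of 63 (9.52%; by a rule of 2 libraries 17.5%, against 18.1% of all 5′ UTRs), among them the orphan receptors Gpr162, with 12, 1, 1, 0, 3 and 3 tags, and Gpr85, with 4, 3, 1, 0, 3 and 1. Kinases and phosphatases had 11 of 156 (7.05%), a share close to the background and below it without replicate 3 (5.13% against 5.73%), with Fyn, a Src-family kinase, at 3, 0, 2, 2, 2 and 2 tags, Gsk3b at 8, 1, 3, 0, 0 and 1, and Trib2, a pseudokinase, at 3, 1, 2, 1, 1 and 0. The pumps Atp1b1, Atp2a2 and Atp6v0a1, a subunit of the vesicle proton pump, were among 8 recurrent solute carriers and pumps of 103 (7.77%). Without replicate 1 the shares were 4.17% for small GTPases, 6.35% for G protein genes, 3.85% for kinases and phosphatases and 3.88% for solute carriers, against 3.39% of all 5′ UTRs.

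Classes of RNA and protein metabolism lay on both sides of the background. RNA-binding factors had 9 of 98 recurrent (9.18%), or 4.08% against 3.39% without replicate 1 and 17.3% against 18.1% by a rule of 2 libraries. In this class, Elavl3 held 0, 3, 1, 1, 1 and 4 tags and the translational regulators Cpeb4, Pum2, Celf4, Larp4b and Pabpc1 were each tagged in 3 libraries. Of 30 ribosomal and translation genes 13 had a tag (43.3%, below the 62.1% of all listed) and 3 (10%) recurred: Rack1, Eif6 and Eif4g2 itself, the gene of the precipitated protein, with 4, 1, 1, 0, 1 and 1 tags. Rack1 and Eif4g2 hold an annotated small nucleolar RNA. With small nucleolar RNA genes removed, this class had 4.17% recurrent against 6.50% of all 5′ UTRs. Ubiquitin ligases, deubiquitinases and proteasome genes had 10 of 156 (6.41%), led by Trim8 with 12, 0, 1, 2, 2 and 2 tags. Endosome and Golgi genes had 4 of 96 (4.17%), with Rtn4 (Nogo) at 2, 2, 1, 1, 1 and 0, and chaperones had 2 of 42 (4.76%), Tcp1 and the stress-response factor Nfe2l1. Chaperones lay above the matching share of all 5′ UTRs in 5 of the 11 alternative settings, and ubiquitin and mitochondrial genes in 1 each.

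Mitochondrial genes had 29 of 58 with a tag (50%, against 62.1% of all listed) and 3 recurrent (5.17%, against 6.71%). These were Atp5g3, a subunit of the ATP synthase ring, with 7, 0, 0, 0, 3 and 2 tags, the matrix protease Lonp1 with 2, 0, 0, 1, 1 and 0, and the mitoribosomal Mrpl53 with 0, 0, 0, 2, 1 and 1. None of the 58 was recurrent without replicate 5 or with replicates 4 to 6 as 1 library, and 1 was recurrent without replicate 1, 4 or 6. No mitochondrial 5′ UTR had a tag in 4 or more libraries, and the class took 0.690 ± 0.472% of a library's tags against 1.72% of the list. Its leaders were also short, with a median of 149.5 bases against 306 over the list, where adhesion and guidance had 481, receptors and scaffolds 464, ion channels 376.5, cytoskeleton 262 and synaptic vesicle 232.

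Chromatin regulators had a tag about as often as other genes, but none in 3 libraries. Of 83 chromatin regulators 51 had a tag (61.4%, close to the 62.1% of all listed) and 9 had tags in 2 libraries, yet 0 reached 3. Of 135 zinc finger and BTB genes 82 had a tag and 2 were recurrent (1.48%), Zbtb10 and Zfp57. Developmental and activity-linked transcription factors had 5 of 73 recurrent (6.85%), a share like the background. The recurrent ones were Nr2f1 (COUP-TFI, a factor of cortical patterning, with 8, 1, 0, 3, 4 and 2 tags and an antisense gene over its leader), Bcl11b (1, 1, 0, 1, 2 and 4), Sox4 (7, 0, 0, 2, 2 and 3), the activity-responsive Mef2c and the TGF-beta inhibitor Smad7. Chromatin and zinc finger classes lay below the matching share of all 5′ UTRs in all 11 alternative settings.

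**Figure D4:**
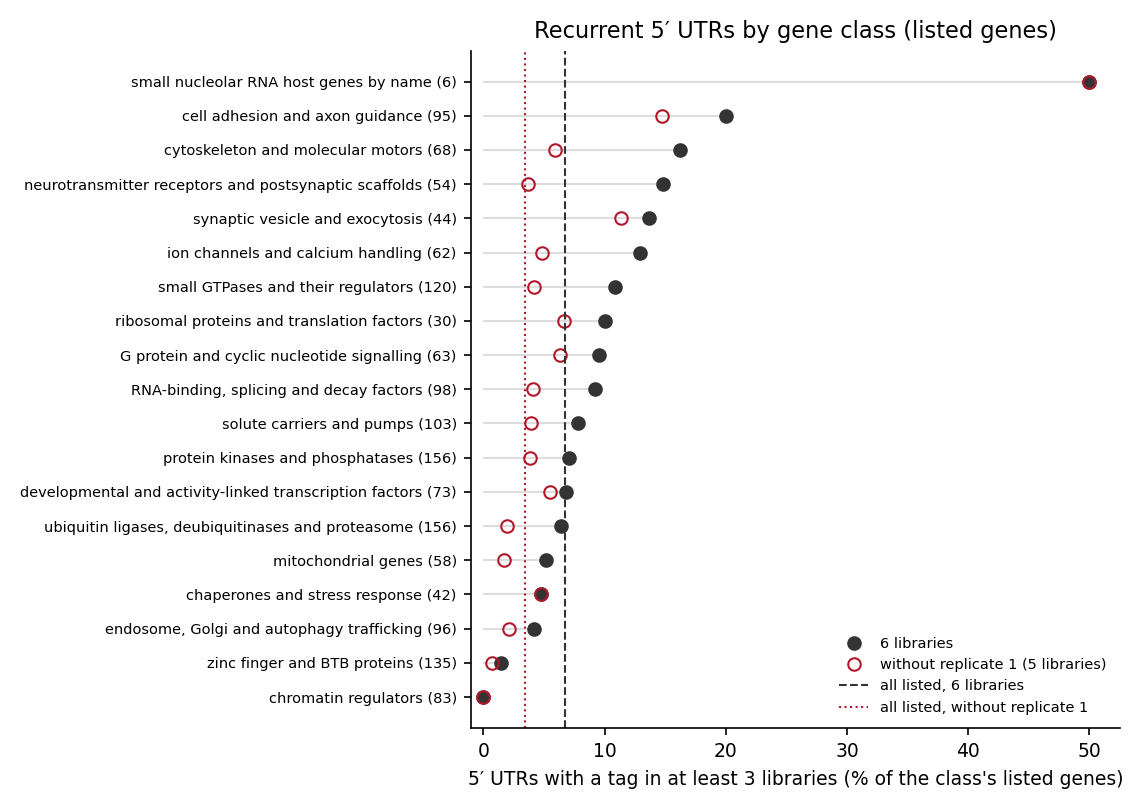
Percent of each class's listed genes (number in brackets) whose 5′ UTR held a tag in at least 3 libraries, with 6 libraries (filled points) and without replicate 1 (open points). Dashed and dotted lines mark the same share over all listed 5′ UTRs, 6.71% and 3.39%; adhesion and guidance lies at 20.0% and 14.7%, chromatin regulators at 0% in both.

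The class of small nucleolar RNA hosts picked by name held 6 genes, 4 of them with such an RNA in the annotation used here, and leaves out other annotated hosts such as 2410002F23Rik, Ddx39b and Cnot1. Of the 6, Tcp1, Rabggtb and Rack1 were recurrent, and the class took 10.6 ± 8.38% of a library's tags against 0.178% of the list. Of the 226 recurrent 5′ UTRs, 100 belonged to no class. Among these, Gpm6a and 2410002F23Rik were tagged in all 6 libraries. Scrt1, a neuronal transcriptional repressor, held 25, 3, 0, 1, 4 and 3 tags, and Plppr4, a phospholipid phosphatase-related protein of the postsynapse, held 10, 1, 1, 2, 7 and 0. Pafah1b1 (Lis1), the dynein regulator of neuronal migration, held 22, 0, 4, 0, 1 and 1, Dpysl2 (Crmp2) of axon specification held 3, 0, 1, 2, 1 and 4, and Gap43 of the growth cone held 5, 1, 0, 0, 2 and 2. These 5 were picked from the unclassed genes after their values were seen.

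Recurrent 5′ UTRs were longer than the others. Among the 5′ UTRs with annotation, the median length was 275 bases with a tag in 0 libraries, 303 in 1, 368 in 2, 486.5 in 3 and 506.5 in 4 to 6. For recurrent ones it was 495.5 bases, against 296 for those in fewer than 3 libraries and 157 for coding genes not listed. GC content ran the other way by a small amount, from a median of 66.0% with 0 libraries to 64.4% with 4 to 6, all above the 58.4% of coding genes not listed. The tagged 5′ UTRs of a single library had a median length of 381 ± 22.9 bases and a median GC content of 65.0 ± 0.990% (SD, n = 6), so the 6 libraries resembled each other in both. The tag counts are not corrected for length.

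Upstream ATGs and the hexamer were found in more of the recurrent leaders, but not at a higher density. At least 1 upstream ATG was found in 63.5% of 5′ UTRs with no resting tag and in 73.2% of the recurrent ones, but per kilobase the numbers were 6.25 and 6.19. CGCGGC was present in 33.8% of those with no resting tag and 48.7% of recurrent ones, while its density was 1.57 and 1.39 per kilobase. The recurrent leaders thus held more copies in a longer sequence. Coding genes not listed had 9.24 upstream ATGs and 0.774 hexamers per kilobase. In the 6 libraries, 44.8 ± 2.63% of tags lay on a 5′ UTR with the hexamer, like the windows of Atp2a2 and Trim8 printed above. On a 5′ UTR with an upstream ATG lay 68.6 ± 2.44% of tags. Of all listed 5′ UTRs, 36.8% held the hexamer and 66.7% an upstream ATG, the latter within 1 SD of its share of tags.

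Recurrence was also described by 5′ UTR length for pooled classes. The adhesion, vesicle, receptor and channel classes were pooled (255 genes), and the transcription factor, zinc finger and chromatin classes likewise (291 genes); both pools were formed after their values were seen. At rest 41 of the former (16.1%) and 7 of the latter (2.41%) were recurrent, with median lengths of 401 and 361 bases. Within the latter pool, transcription factors had 5 of 73 recurrent (6.85%), like the 6.71% of all 5′ UTRs. The low share came from zinc finger genes (2 of 135) and chromatin regulators (0 of 83). By quartile of 5′ UTR length, from shortest to longest, the recurrent share of all 5′ UTRs was 3.11%, 3.95%, 5.88% and 14.0%. The synaptic and adhesion pool had 2.27%, 9.84%, 11.8% and 28.9%, and the nuclear pool had 0%, 0%, 2.30% and 5.62%. The shortest quartile held 1 recurrent gene of 44 and 0 of 52, and the longest, which holds 28 of the 41 recurrent genes of the former pool, spans 487 to 7607 bases. These shares describe the members that formed the pools and are no further evidence of their contrast, and the part of length in it was not tested.

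The pooled shares of tags were read library by library. The synaptic and adhesion pool took 11.7%, 16.7%, 15.4%, 9.88%, 12.4% and 14.0% of the tags of replicates 1 to 6, above its 7.58% of the list in all 6. Within it, the receptor and scaffold class took 1.49 ± 0.517% of tags against 1.60% of the list, and 1.85% of it was tagged in at least 4 libraries against 3.03% of all 5′ UTRs. The nuclear pool took 7.38%, 7.55%, 2.94%, 7.54%, 8.51% and 8.21%, below its 8.65% of the list in all 6. A single member of it, Zbtb10, held 24, 38 and 38 tags in replicates 4 to 6, against 1, 0 and 0 in replicates 1 to 3. Its weight in the share of the nuclear pool was not tested. The ranges of both pools did not overlap, which describes pools chosen after their recurrence was seen. Without replicate 1, 24 and 5 genes of the pools were recurrent among 114, and without replicate 5, 27 and 5 among 159. Since the genes of a pool differ in mRNA abundance and no input RNA was used, the part of abundance in this contrast was not tested.

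**Figure D5:**
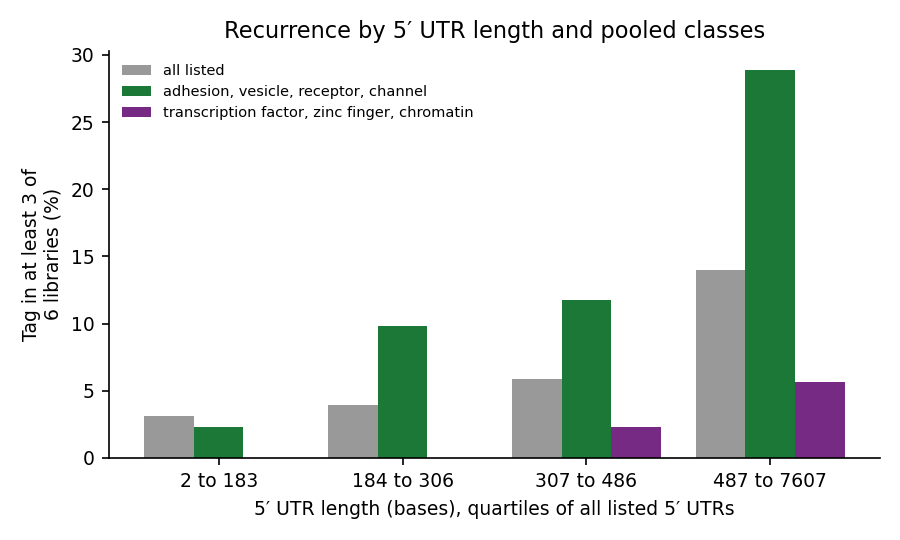
Percent of 5′ UTRs with a tag in at least 3 of 6 resting libraries (vertical axis), by quartile of 5′ UTR length in bases (horizontal axis), for all listed genes (grey), the pooled adhesion, vesicle, receptor and channel classes (green) and the pooled transcription factor, zinc finger and chromatin classes (purple). In the longest quartile the bars stand at 14.0%, 28.9% and 5.62%.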

How the data were processed

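eIF4G2 CLIP was performed on resting mouse cortical neurons. The authors sequenced single-end reads on a MiSeq, filtered and demultiplexed them, removed linkers, collapsed exact duplicates, aligned to mm10 with Rsubread and counted tags over the 5′ UTR of each gene's longest transcript with summarizeOverlaps; the labels also name cutadapt. The deposited values are raw counts per library. Handling of multiply mapping reads, strand setting and the rule for listing a 5′ UTR are not given in the sources used here, so counts of overlapping or near-identical genes are uncertain.

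Of 3367 entries, 1 had no gene name and 0 tags and was dropped. The labels number 6 replicates (5 in the paper's methods, 3 in the series text), with nothing that says how they relate. The table labelled as depolarized replicate 5 repeats resting replicate 5 value for value under a resting heading and counted once, as resting. Depth ranged from 306 to 3224 tags; intervals (Wilson 95%) and floors cover counting error only.

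The members, gene classes and rules were chosen with earlier results of these data known. CPM (tags per 1000000) used library totals, and TMM sizes (edgeR 4.0.16, R 4.3.3) were an alternative. DESeq2 1.42.0 size factors were also computed. Pairs of libraries were compared by chi-square with Benjamini-Hochberg adjustment (scipy 1.17.1). Functions were tested on simulated data. 5′ UTR features came from GENCODE M21 (GRCm38, the same build as mm10), longest coding transcript, for 3336 genes (3355 matched); the authors' transcript may differ. Named genes were those tagged in all 6 libraries, the 10 with highest mean CPM, up to 3 recurrent members of each class, Eif4g2 and markers tagged in at least 2 libraries; others are given as lists. Alternatives left out each library, thinned libraries to 306 tags, required 2 tags, changed the number of libraries, or removed genes with a small nucleolar RNA. Treating replicates 4 to 6 as 1 library, the chi-square over all 5′ UTRs and the split by length were added after seeing the data. Some genes are not reported here.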

Additional observations from a re-analysis of the deposited data

Results flagged for a closer look

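Of 65 sets of 6 resting values examined, 9 held a library far from the other 5 by Dixon's criterion at the 95% level; chance gives about 1 in 20, or 3.25. Replicate 1 stood apart in depth, with 3224 tags against 928 in the next library, and in the number of 5′ UTRs tagged, 1437 against 433. Replicate 3 held 2.94% of its tags on the pooled transcription factor, zinc finger and chromatin classes, where the next lowest library held 7.38%. Without replicate 3 the mean share of that pool was 7.84%, against 7.02% with it. Zbtb10, a member of that pool, held 1, 0, 0, 24, 38 and 38 tags in replicates 1 to 6. The gap of replicate 3 was not tested with Zbtb10 left out.

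For 6 named genes, CPM was far from the rest in 1 library, 5 of them high in replicate 2 or 3, the shallowest. Replicate 2 was high for the vesicle glycoprotein Sv2a and for Nlgn2, at 5391 CPM each, which is 2 tags. Replicate 3 was high for the kinase Gsk3b at 9804 (3 tags), the small GTPase Arl4c at 6536 (2 tags) and the splicing regulator Rbfox3 at 3268 (1 tag). Gpr162, an orphan receptor, was at 0 in replicate 4 and at 2695 or more in the other 5, but 0 tags in replicate 4 allows up to 4115 CPM, so it could not be told apart from them.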

How the results depend on the processing

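No paired analysis was possible because a single condition was described and no result comes from a test between groups. Leaving out each library in turn gave 1165 to 2027 tagged 5′ UTRs, 114 to 193 recurrent ones and 11 to 21 in all remaining libraries; the low end of the first 2 counts came without replicate 1, and the 5′ UTRs in all remaining libraries numbered 19 without replicate 2 and 21 without replicate 3. The recurrent share with an upstream ATG was then 69.0% to 73.2% and that with CGCGGC 45.1% to 49.4%, and recall from replicate 1 was 70.8% to 76.6% for at least 1 other library and 39.4% to 45.3% for at least 2. Thinned to the shallowest library, an expected 878 5′ UTRs were tagged, 68.8 recurrent and 4.23 in all 6; with at least 2 tags required in a library the numbers were 789, 56 and 6. With replicates 4 to 6 as 1 library, 138 were recurrent and 27 had a tag in all 4. A rule of 2 libraries gave 608 recurrent 5′ UTRs with a median length of 422 bases and CGCGGC in 45.3%, and a rule of 4 libraries gave 102, with 70.6% and 47.1% for upstream ATG and CGCGGC. Of 5′ UTRs with at least 10 tags, 69 were recurrent. With at least 3 tags in replicate 1 as the start, recall was 64.0% and 36.6%. These shifts follow from fewer libraries, fewer tags or another rule. The number of classes above background stayed between 9 and 14, with 8 of the 13 below it in at least 1 setting. TMM sizes moved none of the 55 named means by more than 1 SD, but these SDs are as wide as many of the means: Syt1 was at 9389 CPM with TMM, and Slc1a2 went from 389 to 702, Lrfn5 from 672 to 1156, Eif6 from 569 to 922 and Rbfox3 from 596 to 376. DESeq2's size factors were 1 for all 6 libraries on these sparse counts and gave no usable scaling. Counts of 1 or 2 tags limit every statement on a single 5′ UTR.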
